A study of Mus musculus with 6 samples.

Results

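Genes of cholesterol synthesis, uptake and export were followed in pancreatic islets of wild-type (WT) C57BL/6 mice. The 31 genes were taken by symbol for their place in the pathway, with earlier results of these data known. All 31 were found among the 55421 gene IDs of the count tables. They comprise 19 enzymes of synthesis, 4 genes of SREBP2 control, 4 genes of cholesterol uptake and handling, and 4 genes of LXR signalling and export. Islet RNA was sequenced in 3 libraries from the insB:9-23 group and 3 from the vehicle group. The name insB:9-23 is that of an insulin B chain fragment recognised by T cells in autoimmune diabetes. The labels leave out dose, route, duration and age, and they do not settle whether mice or isolated islets received the ligand. No label says that libraries came from separate animals, so p-values measure only library-to-library spread, which may be technical.

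Cells make cholesterol from acetyl-CoA by way of mevalonate, the isoprenoids, squalene and lanosterol. When membrane cholesterol in the endoplasmic reticulum is low, SCAP escorts the transcription factor SREBP2 to the Golgi for cleavage, and SREBP2 then switches on synthesis and uptake genes; the INSIG proteins hold SCAP back when sterols are plentiful. When sterols are abundant, oxysterols activate the nuclear receptors LXR alpha and LXR beta, which switch on the exporters ABCA1 and ABCG1 and the receptor-degrading ligase IDOL. In beta cells of mice, cholesterol load affects insulin secretion, and ABCA1 is a main route of its removal.

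Libraries held 52052808 to 58880189 counts each. All 31 genes passed the filter on low counts, and values below are CPM (counts scaled to library size, corrected by TMM factors). Beta cell markers took 9.42% to 13.6% of counts in the insB:9-23 libraries and 11.8% to 13.6% in the vehicle libraries. In this list of 8, Mafa was at 0 in some library. Acinar markers, which mark enzyme-secreting exocrine cells, took 16.4%, 14.6% and 22.0% in insB:9-23 replicates 1 to 3 and 13.4%, 14.6% and 15.4% in vehicle replicates 1 to 3, with all 13 of 13 detected in every library. The tissue is therefore islet together with exocrine RNA, and insB:9-23 replicate 3 stood apart. The 31 genes took 0.0879% of its counts, against 0.115% and 0.121% in insB:9-23 replicates 1 and 2 and 0.120% to 0.127% in the vehicle libraries. In such bulk samples fewer cells of a type and less RNA per cell cannot be told apart.

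Promoters are shown first for 2 genes that hold the binding motifs of the opposed regulators. The sequences are RefSeq windows on GRCm38.p6, from 250 bases before to 50 after the annotated gene start, printed on the gene's own strand. Promoters were found for 25 of the 31 genes (32 windows, since some genes have several starts) and not for Fdps, Fdft1, Sqle, Npc1, Stard4 and Abcg1. The core of the sterol regulatory element, to which SREBP binds, was searched as TCACNCCAC on both strands. It was in 1 of the 32 windows (3.12%) and in 1.24% of all 32851 windows. Only exact matches to these letters within the windows were counted, so elements of other spelling or place were not seen. The 1 window was that of Hmgcs1, the synthase that makes HMG-CoA, at chr13:119690101-119690400 on the plus strand. Capitals mark the core, which begins 137 bases before the gene start.

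Hmgcs1: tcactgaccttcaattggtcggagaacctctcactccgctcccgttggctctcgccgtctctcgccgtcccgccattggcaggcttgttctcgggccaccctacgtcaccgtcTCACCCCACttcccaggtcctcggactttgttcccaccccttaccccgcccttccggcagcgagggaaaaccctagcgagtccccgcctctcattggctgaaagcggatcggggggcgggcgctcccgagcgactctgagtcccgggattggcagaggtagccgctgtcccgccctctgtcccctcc

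The LXR repeat was searched as GGTNA, 5 bases of any kind and GGTNA again, on both strands. It was in 1 of the 32 windows (3.12%) and in 0.718% of all windows. That window belonged to Abca1, the exporter with the smallest p of the 31 genes, at chr4:53159846-53160145 on the minus strand. Capitals mark the repeat, which lies on the reverse strand of the gene and begins 67 bases before the gene start.

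Abca1: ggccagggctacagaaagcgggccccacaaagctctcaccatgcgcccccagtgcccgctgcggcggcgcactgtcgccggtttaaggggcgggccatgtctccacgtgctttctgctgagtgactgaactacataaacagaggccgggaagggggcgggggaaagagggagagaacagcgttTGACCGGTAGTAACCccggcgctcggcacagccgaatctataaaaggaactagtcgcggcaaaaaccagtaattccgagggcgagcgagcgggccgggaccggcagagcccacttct

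The NF-Y box, searched as CCAAT on both strands, stood in 20 of the 32 windows (62.5%) and in 37.4% of all windows. NF-Y is a factor that works beside SREBP at many sterol genes. No overlap between different motifs was taken into account, and a match is a description of letters only.

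Between the groups no gene of the 31 passed the test: 0 were called higher and 0 lower by edgeR's quasi-likelihood test at an adjusted p of 0.05 over 17016 genes, of which 14 (0.0823%) were called. At an unadjusted p below 0.05, 1 of the 31 was higher (2.74% of all genes tested) and 2 were lower (2.81% of all). The 1 was Abca1, and the 2 were Stard4, a carrier of cholesterol between membranes, and Lss, lanosterol synthase. DESeq2 called 1 of the 31, Abca1 (adjusted p = 0.041), where it called 0.555% of the genes it tested. In TMM-corrected CPM the groups did not overlap for Abca1, which was higher (6.4% of all genes tested). They also did not overlap for 5 genes that were lower (7.12% of all), Stard4, Lss, Insig1, Sqle and Fdft1.

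**Figure D1:**
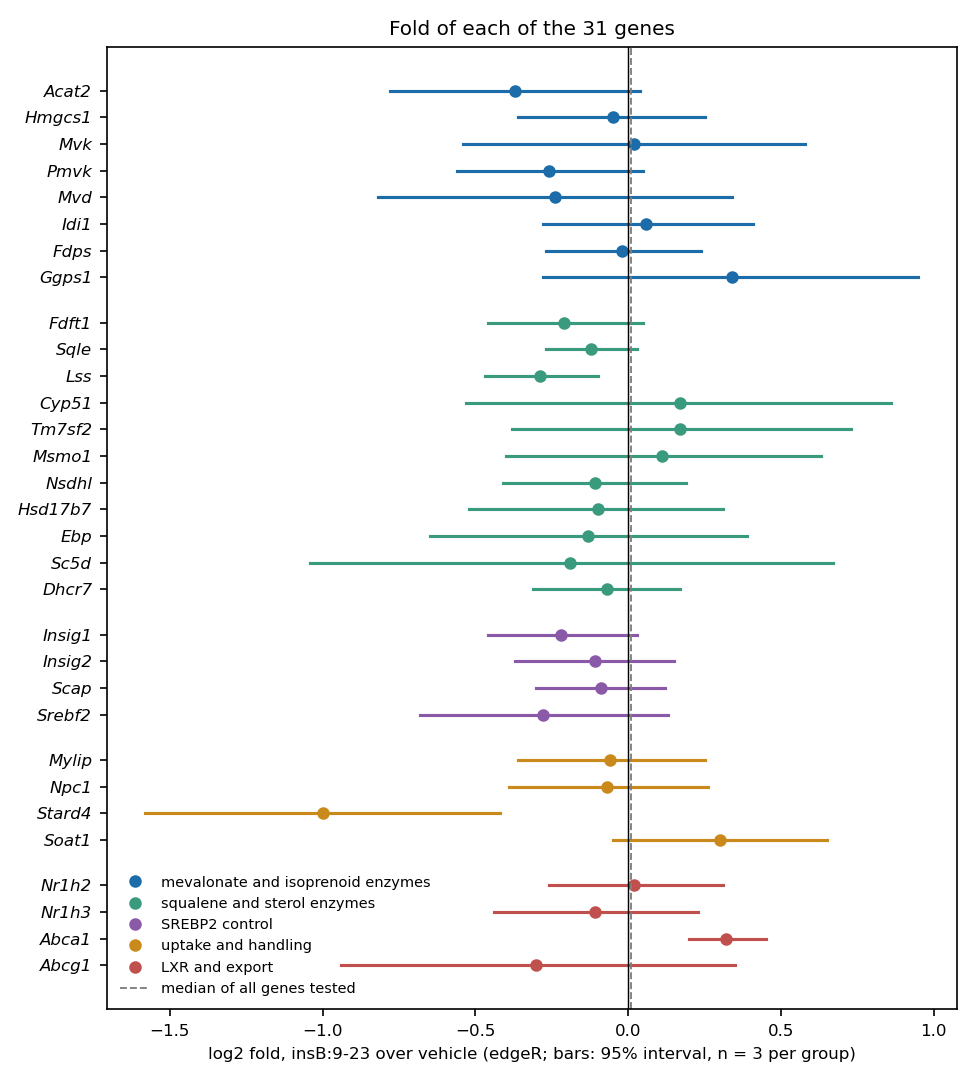
Log2 fold of each of the 31 genes, insB:9-23 over vehicle, by edgeR, with bars for the 95% interval (n = 3 libraries per group) and colours for the part of the pathway. The intervals of Abca1 (0.20 to 0.45), Stard4 (-1.58 to -0.42) and Lss (-0.47 to -0.10) leave out 0, and those of the other 28 genes include it.

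Most folds were small and below 0. Of the 31 genes 22 had a fold below 0 (71%), with a median log2 fold of -0.10, while 48.5% of all genes tested had one, with a median of 0.009. Without insB:9-23 replicate 3, the library richest in acinar RNA, 18 of 31 were below 0 and the median was -0.04. A fit that also held a term for acinar markers again gave 18, with a median of -0.06. With library totals alone 27 of 31 were below 0, as were 69.4% of all genes, and the medians were -0.244 and -0.145.

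Synthesis was examined from its first steps onward. The early enzymes run from acetyl-CoA to the isoprenoids. Of these 8 genes 5 had a fold below 0, with a median log2 fold of -0.035. Acat2, a thiolase that joins acetyl-CoA units, was at 7.31, 7.81 and 7.03 CPM in insB:9-23 replicates 1 to 3 and at 10.7, 7.56 and 10.3 CPM in vehicle replicates 1 to 3. Vehicle replicate 2 lay among the insB:9-23 libraries, and the log2 fold was -0.37 ± 0.17 (SE, n = 3 per group; edgeR adjusted p = 0.88). Pmvk, phosphomevalonate kinase, was at 10.7, 11.4 and 9.53 CPM in the insB:9-23 libraries and 13.2, 11.3 and 13.2 CPM in the vehicle libraries. Its groups overlapped by a single vehicle library, with a log2 fold of -0.26 ± 0.13 (SE; edgeR adjusted p = 0.88).

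The other 6 early enzymes had log2 folds between -0.24 and 0.34. Hmgcs1, whose sterol element is shown above, averaged 60.5 ± 9.34 CPM in the insB:9-23 group and 62.8 ± 3.36 CPM in the vehicle group (SD, n = 3 each). Its log2 fold was -0.05, with a 95% interval of -0.36 to 0.25. Fdps, farnesyl diphosphate synthase, averaged 31.9 ± 3.46 and 32.3 ± 1.57 CPM in insB:9-23 and vehicle. Idi1, the isopentenyl diphosphate isomerase, averaged 18.1 ± 0.258 and 17.4 ± 3.12 CPM in the same order, and Mvk, mevalonate kinase, 7.49 ± 0.453 and 7.39 ± 2.16 CPM. For these 4 genes the means differed by less than the SD of at least 1 group, with intervals that allow changes of up to 0.58 in size on the log2 scale. Mvd, the mevalonate diphosphate decarboxylase, was at 3.67, 5.02 and 6.29 CPM in the insB:9-23 libraries and 5.83, 6.70 and 5.19 CPM in the vehicle libraries. Ggps1, which makes geranylgeranyl diphosphate for the non-sterol branch, had the highest fold of the 31 genes (0.34 ± 0.25 SE), but its level in vehicle replicate 2 (14.3 CPM) stood below the 23.3 to 32.2 CPM of the 5 other libraries.

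The later enzymes turn farnesyl diphosphate into squalene, lanosterol and cholesterol. Of these 11 genes 8 had a fold below 0, with a median log2 fold of -0.106. Lss, which closes squalene epoxide into lanosterol, was at 22.1, 22.5 and 21.8 CPM in insB:9-23 replicates 1 to 3 and at 28.0, 25.8 and 27.2 CPM in vehicle replicates 1 to 3. Every insB:9-23 library was below every vehicle library, and libraries of a group were close together. The log2 fold was -0.29 ± 0.08 (SE; edgeR adjusted p = 0.88). Over the 15 alternative settings the adjusted p lay between 0.52 and 0.99 and the fold between -0.44 and -0.26.

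Fdft1, squalene synthase, was at 30.4, 38.4 and 34.7 CPM in the insB:9-23 libraries and 38.5, 39.2 and 41.7 CPM in the vehicle libraries. The highest insB:9-23 library fell just short of the lowest vehicle library, and the log2 fold was -0.21 ± 0.11 (SE; edgeR adjusted p = 0.88). Of its exon bases 18.3% are shared with Ctsb on the opposite strand, so its count is uncertain where reads were not assigned by strand. Sqle, squalene epoxidase, the oxygen-using step after squalene, was at 52.2, 53.2 and 51.4 CPM in the insB:9-23 libraries and 56.0, 58.6 and 56.0 CPM in the vehicle libraries. Its groups stood apart by a narrow margin, with a log2 fold of -0.12 ± 0.06 (SE; edgeR adjusted p = 0.88). Lss, Fdft1 and Sqle act next to each other, and they were the 3 synthesis genes whose groups did not overlap.

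Among enzymes after lanosterol, 4 genes had a single library more than 0.5 below the gene's mean log2 CPM. Cyp51, lanosterol demethylase, was at 33.1, 37.9 and 38.8 CPM in the insB:9-23 libraries and 19.4, 38.7 and 39.7 CPM in the vehicle libraries. Msmo1, a methylsterol oxidase that acts later, was at 43.0, 56.8 and 48.5 CPM in the insB:9-23 libraries and 33.0, 51.3 and 52.6 CPM in the vehicle libraries. Vehicle replicate 1 was the lowest library for Cyp51 and for Msmo1. Sc5d, the sterol desaturase, was at 33.4, 35.6 and 14 CPM in the insB:9-23 libraries and 30.7, 31.8 and 32.0 CPM in the vehicle libraries. Ebp, the sterol isomerase, was at 16.2, 17.5 and 10.5 CPM in the insB:9-23 libraries and 18.1, 14.6 and 15.6 CPM in the vehicle libraries. For this pair insB:9-23 replicate 3 was the low one. Dhcr7, a late reductase, averaged 16.7 ± 0.825 CPM in the insB:9-23 group and 17.5 ± 1.25 CPM in the vehicle group. Nsdhl, which helps to remove the methyl groups, averaged 9.84 ± 0.938 and 10.6 ± 0.601 CPM in insB:9-23 and vehicle, Hsd17b7, a sterol ketone reductase, 5.76 ± 0.984 and 6.20 ± 0.111 CPM, and Tm7sf2, a sterol reductase, 8.39 ± 2.21 and 7.44 ± 0.612 CPM. Hsd17b7 was also lowest in insB:9-23 replicate 3 (4.65 CPM), and Tm7sf2 was lowest in insB:9-23 replicate 2 (5.83 CPM). The intervals of all these enzymes include 0.

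Summed over the 19 enzymes, synthesis genes stood at 435.8, 469.5 and 431.6 CPM in insB:9-23 replicates 1 to 3 and at 443.1, 454.1 and 483.5 CPM in vehicle replicates 1 to 3, so the groups overlapped. The median log2 fold over the 19 was -0.104, with 13 below 0. Without insB:9-23 replicate 3 the median was 0.031, with 9 below 0, and with the acinar marker level in the fit it was -0.041. The part of exocrine RNA in the synthesis result was not tested beyond these values.

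**Figure D2:**
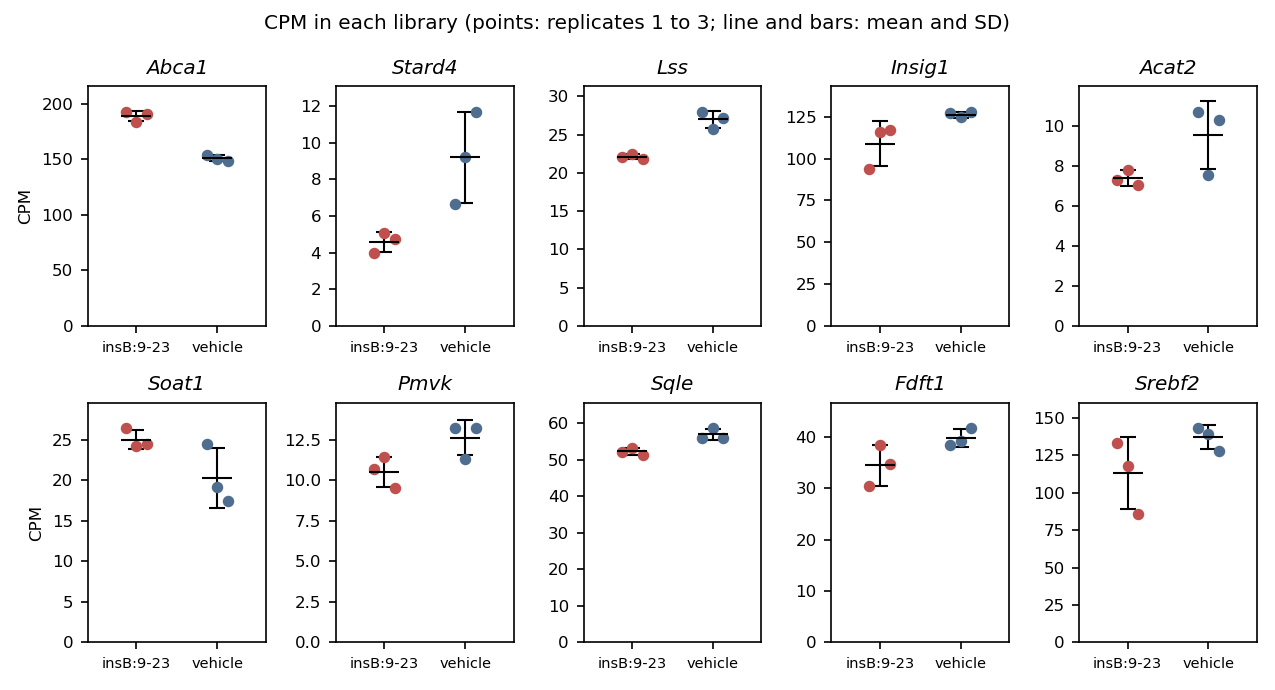
CPM of the 10 genes with the smallest p in each library, with insB:9-23 left and vehicle right; points are replicates 1 to 3 from left to right, and lines and bars are the mean and SD (n = 3 per group). Abca1 sits between 184 and 193 CPM in the insB:9-23 libraries and between 149 and 154 CPM in the vehicle libraries, while Acat2, Soat1, Pmvk and Srebf2 overlap.

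The 4 genes of SREBP2 control all had folds below 0, with a median log2 fold of -0.163 that lay between -0.322 and -0.121 under the alternatives. Insig1, an endoplasmic reticulum anchor of SCAP and itself an SREBP target, was at 93.6, 116 and 117 CPM in insB:9-23 replicates 1 to 3 and at 127, 125 and 128 CPM in vehicle replicates 1 to 3. The vehicle libraries were tightly grouped above all insB:9-23 libraries, of which replicate 1 was lowest. The log2 fold was -0.22 ± 0.10 (SE, n = 3 per group; edgeR adjusted p = 0.88), and -0.115 without insB:9-23 replicate 1. Srebf2, which encodes SREBP2, was at 133, 118 and 86.0 CPM in the insB:9-23 libraries and 143, 139 and 128 CPM in the vehicle libraries. Here replicate 3 was the low library of its group, and the groups overlapped. The log2 fold was -0.28 ± 0.16 (SE; edgeR adjusted p = 0.88), or -0.115 without that library and -0.058 with the acinar term.

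Insig2, the other anchor of SCAP, averaged 37.3 ± 4.06 CPM in the insB:9-23 group and 40.2 ± 2.32 CPM in the vehicle group. Scap averaged 72.0 ± 5.47 and 76.5 ± 4.61 CPM in insB:9-23 and vehicle. Neither passed the test, with edgeR adjusted p of 0.91 for each. The ratio of Insig1 to Insig2 counts, which no scaling touches, was 2.86, 3.01 and 2.88 in the insB:9-23 libraries and 2.97, 3.24 and 3.24 in the vehicle libraries. The ratio of Srebf2 to Scap was 1.75, 1.79 and 1.16 in the insB:9-23 libraries and 1.82, 1.74 and 1.79 in the vehicle libraries. The low value in this ratio was again that of insB:9-23 replicate 3.

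Among uptake and handling genes, Stard4 had the largest fold of the 31 in size. It lies on chromosome 18 (33199355 to 33213862, GRCm38), and its START domain protein carries cholesterol through the cytosol. It was at 4.00, 5.05 and 4.72 CPM in insB:9-23 replicates 1 to 3 and at 6.68, 9.25 and 11.7 CPM in vehicle replicates 1 to 3. All insB:9-23 libraries were below all vehicle libraries, but the vehicle libraries were spread widely. The log2 fold was -1.0 ± 0.24 (SE; edgeR adjusted p = 0.83), with a 95% interval of -1.58 to -0.42. It missed the threshold with DESeq2 (adjusted p = 0.055), and over the 15 alternatives the fold was between -1.19 and -0.80 and the adjusted p between 0.055 and 0.96.

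Soat1, which esterifies cholesterol for storage, was at 26.4, 24.2 and 24.4 CPM in the insB:9-23 libraries and 24.5, 19.1 and 17.4 CPM in the vehicle libraries. One vehicle library lay within the insB:9-23 range, and the log2 fold was 0.30 ± 0.14 (SE; edgeR adjusted p = 0.88). Npc1, which moves cholesterol out of lysosomes after uptake, averaged 27.6 ± 3.97 CPM in the insB:9-23 group and 28.9 ± 2.45 CPM in the vehicle group. Mylip, which encodes the LXR-induced ligase IDOL that marks lipoprotein receptors for degradation, averaged 9.36 ± 0.706 and 9.72 ± 0.744 CPM in insB:9-23 and vehicle. Its 95% interval was -0.36 to 0.25. The median log2 fold over these 4 genes was -0.062, and 0.001 without vehicle replicate 1.

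In the export arm Abca1 and Abcg1, targets of the same nuclear receptors, did not have like values. Abca1 (chromosome 4, 53030787 to 53159895, GRCm38) loads cholesterol and phospholipid onto apolipoprotein A-I. It was at 193, 184 and 191 CPM in insB:9-23 replicates 1 to 3 and at 154, 150 and 149 CPM in vehicle replicates 1 to 3. On this TMM-corrected scale every insB:9-23 library was above every vehicle library, by more than the range within a group. The TMM factor was 0.8057 for insB:9-23 replicate 3 and 1.004 to 1.083 for the other libraries. Without these factors the groups overlapped, as insB:9-23 replicate 3 (8755 of 56868559 counts) lay below vehicle replicate 1 (9759 of 58407338). With the factors the log2 fold was 0.32 ± 0.05 (SE; edgeR adjusted p = 0.30). Leaving out any 1 library gave log2 folds of 0.31 to 0.34 and adjusted p of 0.32 to 0.67, and the acinar term gave 0.31 ± 0.07. With library totals alone, a scaling under which the median of all genes was -0.145, the log2 fold was 0.17 ± 0.135 (SE; edgeR adjusted p = 0.82).

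Abcg1, which passes cholesterol to HDL particles, was at 64.6, 60.9 and 32.4 CPM in the insB:9-23 libraries and 66.3, 65.0 and 62.9 CPM in the vehicle libraries. Replicates 1 and 2 of insB:9-23 lay close to the vehicle libraries and replicate 3 was far below, with a log2 fold of -0.30 ± 0.26 (SE; edgeR adjusted p = 0.90), or -0.04 without replicate 3 and 0.055 with the acinar term. The ratio of Abca1 to Abcg1 counts within a library was 2.98, 3.02 and 5.91 in insB:9-23 replicates 1 to 3 and 2.33, 2.31 and 2.37 in vehicle replicates 1 to 3. This ratio does not depend on scaling, and its groups did not overlap with or without insB:9-23 replicate 3. It was computed after the values of its genes were seen, and Abca1 alone already stood apart in TMM-corrected CPM. How often other gene pairs stand apart was not computed. Neither this ratio nor those of Insig1 to Insig2 and Srebf2 to Scap were among the planned results.

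The receptors themselves did not pass the test. Nr1h2, encoding LXR beta, averaged 42.0 ± 5.70 CPM in the insB:9-23 group and 41.3 ± 1.85 CPM in the vehicle group, with a log2 fold of 0.02 and a 95% interval of -0.26 to 0.31. Nr1h3, encoding LXR alpha, averaged 5.27 ± 0.144 and 5.67 ± 0.407 CPM in insB:9-23 and vehicle, with a log2 fold of -0.11 and an interval of -0.44 to 0.23. Macrophages also carry LXR alpha and ABCA1. The 8 macrophage and dendritic cell markers, all detected in every library, took 0.013% to 0.0381% of counts in the insB:9-23 libraries and 0.023% to 0.0305% in the vehicle libraries, so the groups overlapped. The 7 T, NK and B cell markers took 0.000508% to 0.00588% in the insB:9-23 libraries and 0.000861% to 0.000993% in the vehicle libraries, with Cd8a at 0 in some library. The highest share of each of these lists was that of insB:9-23 replicate 2, and the T, NK and B cell share of the other insB:9-23 libraries was at most 0.00109%. The part of these cells in the Abca1 values was not tested.

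**Figure D3:**
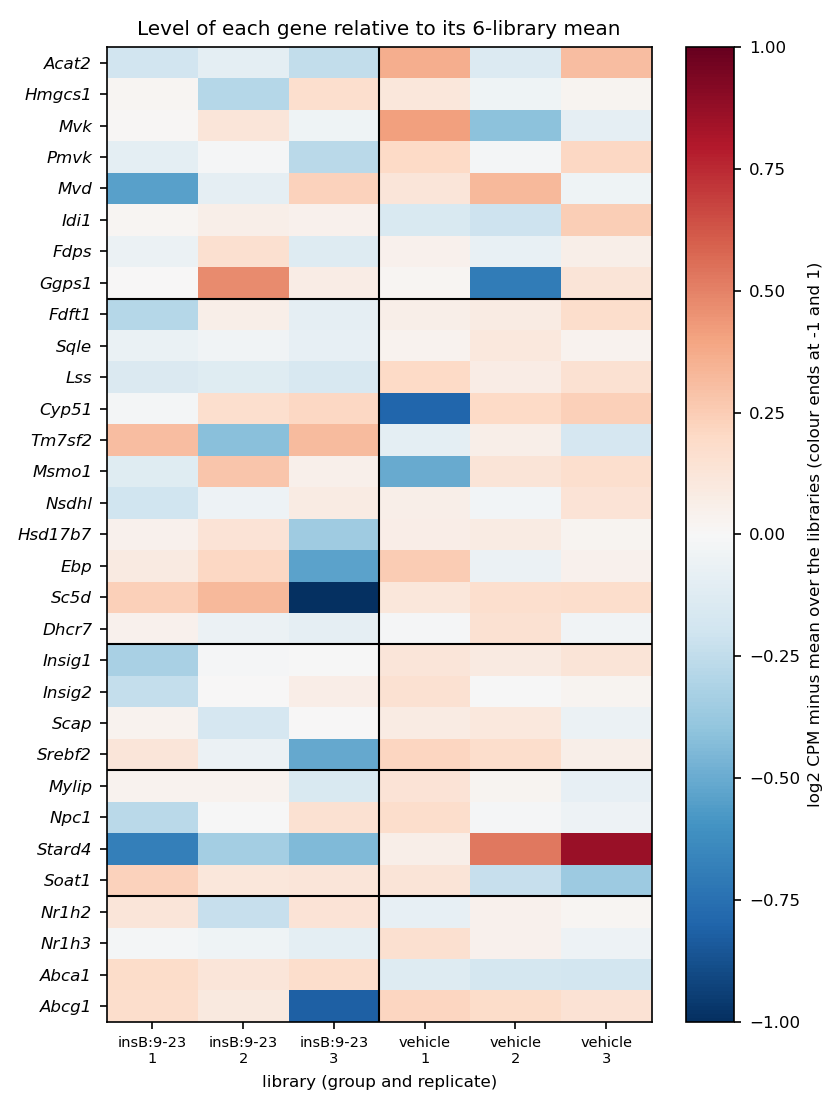
Level of each gene in each library as log2 CPM minus the gene's mean over the 6 libraries, insB:9-23 left and vehicle right, with lines between the parts of the pathway. Abca1 is above its mean in all 3 insB:9-23 libraries and Stard4 below it; beside Stard4, a library lies more than 0.5 below the mean for Sc5d, Abcg1, Srebf2 and Ebp (insB:9-23 replicate 3), Mvd (insB:9-23 replicate 1), Cyp51 and Msmo1 (vehicle replicate 1) and Ggps1 (vehicle replicate 2).

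The spread over the 6 libraries was near that of other genes. The highest library was at least 2 times the lowest for 5 of the 31 genes (16.1%), Stard4 (2.92), Sc5d (2.53), Ggps1 (2.25), Cyp51 (2.05) and Abcg1 (2.05), against 18.3% of the 9653 genes tested in the same CPM range. The median ratio of highest to lowest was 1.37 in each set. The median coefficient of variation was 10.9% in the insB:9-23 group and 7.15% in the vehicle group for the 31 genes, against 10.4% and 9.13% for those 9653 genes.

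Levels of different genes were compared per length of exon. On the scale of CPM per kilobase, Insig1 was highest in each group (35.2 in insB:9-23 and 40.9 in vehicle). Stard4 was lowest in insB:9-23 (0.821, against 1.65 in vehicle), and Hsd17b7 was lowest in vehicle (1.13 in insB:9-23 and 1.21 in vehicle). Abca1 (18.3 and 14.6), Srebf2 (15.7 and 19.0) and Hmgcs1 (13.2 and 13.7) followed Insig1. Srebf2 stood above Abca1 in the vehicle group and below it in the insB:9-23 group, a change of order that was not tested. Of the receptors, LXR beta RNA (Nr1h2, 12.5 and 12.3) exceeded LXR alpha RNA (Nr1h3, 2.10 and 2.25) in each group. Lss, the enzyme with the smallest p in synthesis, was among the lowest (2.05 and 2.51). The length used was the union of all annotated exons, 10787 bases for Lss, so its place on this scale depends on the annotation.

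Other genes of the pathway were read from a list of 51, and none passed the edgeR test over all genes (0 higher and 0 lower). At an unadjusted p below 0.05, 1 was higher and 3 were lower, against 2.74% and 2.81% of all genes tested. The 3 with the smallest p were Fasn, Scd2 and Nceh1. Fasn, fatty acid synthase, was at 113, 95.4 and 111 CPM in the insB:9-23 libraries and 141, 151 and 130 CPM in the vehicle libraries, with a log2 fold of -0.40 ± 0.09 (SE; edgeR adjusted p = 0.83). Scd2, a desaturase, was at 155, 165 and 169 CPM in the insB:9-23 libraries and 190, 193 and 192 CPM in the vehicle libraries, with a log2 fold of -0.23 ± 0.06 (SE; edgeR adjusted p = 0.83). Each is a lipid gene that SREBP factors are known to switch on, and in each the groups did not overlap. Scd1, another desaturase of the same list and the 1 gene higher at an unadjusted p below 0.05, had the opposite direction. It was at 12.2, 12.4 and 13.5 CPM in the insB:9-23 libraries and 8.98, 9.02 and 11.4 CPM in the vehicle libraries, with groups that did not overlap and a log2 fold of 0.37 ± 0.14 (SE; edgeR adjusted p = 0.88). Of the 51 genes 4 were higher and 4 lower with no overlap between groups, against 6.4% and 7.12% of all genes tested.

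Nceh1, a hydrolase of cholesterol esters, was at 4.32, 5.80 and 4.63 CPM in the insB:9-23 libraries and 41.1, 7.92 and 42.6 CPM in the vehicle libraries. Vehicle replicate 2 was near the insB:9-23 libraries and far below its own group, and the log2 fold was -2.63 ± 0.64 (SE; edgeR adjusted p = 0.88; DESeq2 adjusted p = 0.00035). By list, folds were below 0 in 5 of 7 fatty acid targets of SREBP (median log2 fold -0.189), 5 of 8 genes of SREBP processing and degradation (-0.083) and 8 of 13 other uptake and handling genes (-0.023). They were below 0 in 5 of 10 genes of the non-sterol isoprenoid branch (0.007), 2 of 5 other sterol enzymes (0.034) and 3 of 8 other LXR partners, targets and export genes (0.028). Over the 51 genes 54.9% were below 0, with a median of -0.023.

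**Figure D4:**
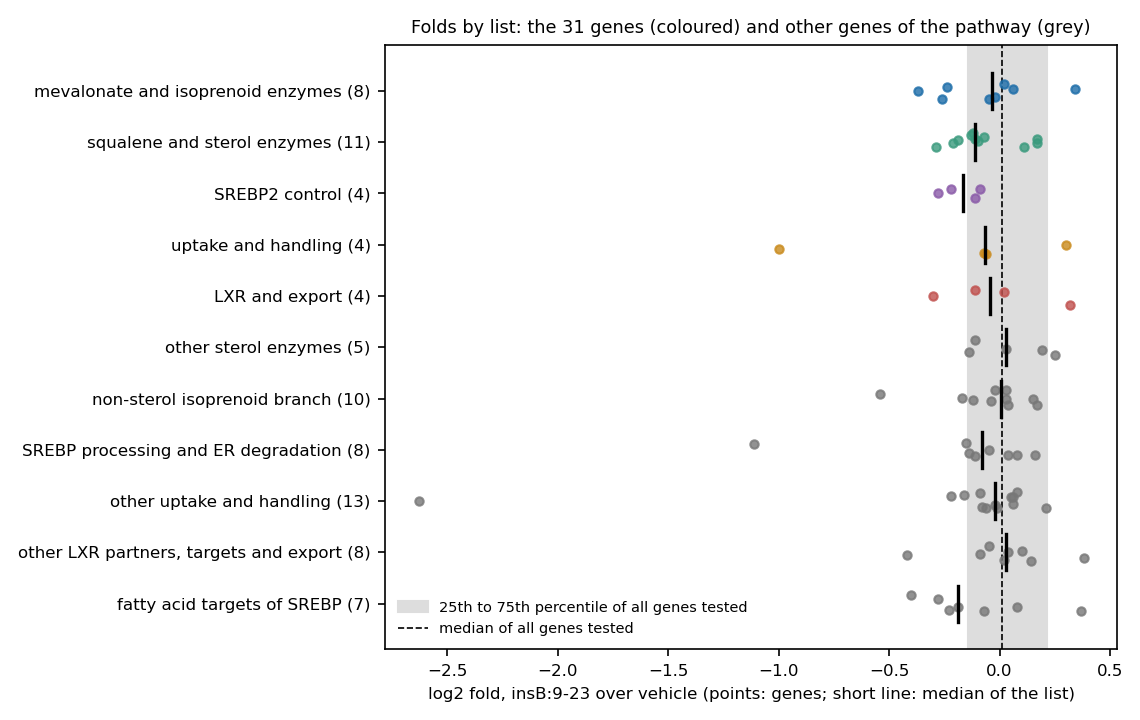
Log2 folds, insB:9-23 over vehicle, of the 31 genes (coloured) and of 51 other genes of the pathway (grey) by list, with a short line at each list's median, the middle range of all 17016 genes tested shaded (-0.144 to 0.214) and their median dashed (0.009). The shaded range is that of single genes and is no test of a list's median; list medians lie between -0.189 (fatty acid targets of SREBP) and 0.034 (other sterol enzymes).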

How the data were processed

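Per the labels, TRIzol was used for RNA and a KAPA stranded kit for the libraries. The authors deposited raw counts per Ensembl gene for each library, per the file headers. HISAT, DESeq 1.8.3 and featureCounts 1.5.0-p3 appear, with no role stated, in the submitters' processing notes, as does GRCm38. Annotation release and strand setting: not given in the sources used here. Symbols, places and exon lengths came from GENCODE M21 on GRCm38.

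In R 4.3.3, edgeR 4.0.16 was run on the counts of 17016 genes kept by filterByExpr, with TMM scaling and a robust quasi-likelihood F test of insB:9-23 over vehicle. P-values were adjusted by Benjamini-Hochberg over all genes, with a threshold of 0.05. The fit was tested on simulated data, where it left many changed genes uncalled and called some unchanged genes. An uncalled gene is therefore not shown to be unchanged. SE is the size of the fold divided by the root of F. At these depths 3 counts correspond to 0.0475 to 0.0655 CPM. Replicates of a group differed beyond sampling noise (chi-square per degree of freedom 79.96 to 247.1).

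Alternatives were other scalings and filters, DESeq2 1.42.0, limma-voom (limma 3.58.1), the replicate block, an acinar marker covariate and each library left out. By rule, library values are given for the 10 genes with the smallest p, for genes whose groups do not overlap and for the 3 other pathway genes with the smallest p. Mvd, Cyp51, Msmo1, Sc5d, Ebp, Abcg1 and Scd1, and the low libraries of Ggps1, Hsd17b7 and Tm7sf2, were added after their values were seen. The genes and lists were chosen with earlier results of these data known. Fdps shares 26.7% of its exon bases with Gm43738 on the same strand, Tm7sf2 12.1% with Vps51 on the same strand, and Hmgcs1 (12.1%) and Scap (13.2%) share bases with a gene on the opposite strand, so these counts are uncertain.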

Additional observations from a re-analysis of the deposited data

How the results depend on the processing

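The count of the 31 genes past the threshold was 0 in the 14 alternatives other than DESeq2, which called 1 (Abca1). Of the 31 genes 17 had the same direction under all 15 alternatives, among them Abca1, Stard4, Lss, Insig1, Sqle, Fdft1 and Soat1. Over all genes 14 were called, 106 by DESeq2, 7 with the acinar term, 0 with the replicate block and 16 to 26 with 1 library left out. Same-numbered libraries had correlations of -0.0349, -0.0637 and -0.0249 between their deviations from the group means, so same numbers were not taken as pairs. With the replicate block the medians were -0.109, -0.169, -0.065 and -0.044 for synthesis, SREBP2 control, uptake and handling, and LXR and export.

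With library totals alone the medians of those 4 lists were -0.235, -0.322, -0.217 and -0.198, while that of all genes was -0.145. The synthesis median was -0.041 with the acinar term. With 1 library left out the medians lay between -0.108 and 0.031 for synthesis, -0.202 and -0.121 for SREBP2 control, -0.111 and 0.001 for uptake and handling, and -0.074 and 0.011 for LXR and export. The cause of these shifts was not tested.

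Some genes changed sign. Library totals alone turned the sign of the log2 fold to -0.130 for Mvk, -0.085 for Idi1, -0.001 for Tm7sf2, -0.027 for Msmo1 and -0.139 for Nr1h2. The acinar term turned the sign of the log2 fold to 0.080 for Fdps, -0.054 for Tm7sf2, 0.082 for Hsd17b7, 0.169 for Ebp, 0.254 for Sc5d, 0.050 for Mylip, -0.102 for Nr1h2 and 0.055 for Abcg1. With 1 library left out the sign turned for 12 genes, whose log2 folds ranged over -0.107 to 0.047 for Fdps, -0.099 to 0.333 for Cyp51, -0.073 to 0.229 for Msmo1, -0.110 to 0.009 for Mylip, -0.165 to 0.040 for Npc1, -0.035 to 0.132 for Nr1h2, -0.153 to 0.270 for Mvk, -0.022 to 0.219 for Idi1, -0.155 to 0.060 for Hmgcs1, -0.203 to 0.031 for Hsd17b7, -0.272 to 0.068 for Ebp and -0.407 to 0.135 for Sc5d.

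The calls rest on 3 libraries per group. The lowest count of the 31 genes in any library was 213 (Hsd17b7 in insB:9-23 replicate 3).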
